A study of Mus musculus with 18 samples.

Results

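Metabolic enzymes that make serine, glycine, asparagine, proline and cysteine or carry one-carbon units were followed in astrocytes with mutant eIF2B under inflammatory cytokines. The group holds 10 of the 12205 genes in the authors' deposited table of log2 folds, namely Asns, Phgdh, Psat1, Psph, Shmt2, Mthfd2, Pycr1, Aldh18a1, Cth and Cbs. The members were listed by name as metabolic enzymes under the transcription factor ATF4, and each was found once, by its symbol. The rule uses no measured value, but the list was drawn up with earlier results of these data known.

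Mouse primary astrocytes, freshly thawed and homozygous for Eif2b5-R132H-R132H, were given 20 ng/ml TNFα together with 0.25 ng/ml IL-1β over 24 hr or over 48 hr, or were left untreated. Every library came from cells kept for 120 hr in culture, so the cytokines were present at the end of that period. RNA-seq and Ribo-seq, which sequences the mRNA fragments of 26 to 34 nt that ribosomes shield from nuclease, were each done on 3 libraries per condition, from batches A, B and C, 18 libraries in all. The untreated cells carry the mutation too. No wild-type library is among these 18, and the WT folds quoted below are the authors' own columns for WT astrocytes under the same table headings.

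Phgdh, Psat1 and Psph act in sequence to turn a glycolytic intermediate into serine, and Shmt2 and Mthfd2 then pass the carbon of serine into the mitochondrial folate pool. Cbs and Cth join serine to homocysteine and release cysteine, Aldh18a1 and Pycr1 make proline from glutamate, and Asns makes asparagine from aspartate. In many mammalian cells ATF4, the transcription factor whose translation goes up when eIF2B activity is low, activates genes of this kind, and astrocytes are a main source of serine for neurons.

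The values are log2 folds of treated cells over untreated ones of that genotype, 1 pooled fold per gene and comparison, for mRNA, for ribosome-protected fragments (RPF) and for ribosome density (RD), for which no formula is given in the sources used here. With 1 fold per comparison there is no replicate error, no test could be run and depth per library is unknown, so a count at or beyond 1 in either direction is a description only, given beside the percentage of all genes that lie there. In bulk cultures, fewer cells of a type and less RNA per cell cannot be told apart. The table has no expression levels, so the astrocyte label could not be checked against marker levels: all 8 listed astrocyte markers had a row, with a median mutant mRNA fold of -0.60 at 24 hr (range -2.16 to 1.99) and -0.70 at 48 hr, and none of 6 microglial markers had one. All 6 fibroblast and mural cell markers had a row, with a median mutant mRNA fold of 1.14 at 24 hr (range -2.81 to 4.60) and 0.81 at 48 hr. The medians at 24 hr and 48 hr were -1.75 and -1.91 for 2 of 4 endothelial markers, -0.84 and -0.47 for 3 of 5 neuronal markers, and 0.07 and -0.05 for 4 of 6 oligodendrocyte markers that had a row. The part of other cells in the folds below was not tested.

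The promoters are shown first because the listing rests on ATF4, which with C/EBP partners binds the element abbreviated CARE. CARE was searched as TGATGNAAN and in the stricter form TGATGCAAT, and the cyclic AMP response element CRE as TGACGTCA, on both strands, in the RefSeq promoter table (GRCm38.p6, 250 bases before and 50 after each start). The strict form is contained in the looser one. Of the 10 enzymes, 9 had a window, Psat1 with 2 of them, and Cth had none. CARE was found in 2 of these 9 genes, Asns and Pycr1, and in 3.95% of all 32851 windows; the strict form was found in Pycr1 only, and in 0.192% of windows. CRE was found in none of the 9 genes and in 1.79% of windows. The Asns match, TGATGAAAC, begins 23 bases before the RefSeq start on the sense strand, within an exon that GENCODE annotates for the gene. Shown here are the upstream bases of Pycr1, the member with the highest mutant folds and the strict element, of Aldh18a1, its partner in proline synthesis, and of Psat1, a member with low folds. They lie on the minus strand and are printed 5′ to 3′ as far as the first annotated exon base, at chr11:120643770-120643998, chr19:40588464-40588713 and chr19:15925060-15925309, with the strict CARE in capitals. The Psat1 stretch lies within an intron of a longer GENCODE transcript of the gene.
Pycr1: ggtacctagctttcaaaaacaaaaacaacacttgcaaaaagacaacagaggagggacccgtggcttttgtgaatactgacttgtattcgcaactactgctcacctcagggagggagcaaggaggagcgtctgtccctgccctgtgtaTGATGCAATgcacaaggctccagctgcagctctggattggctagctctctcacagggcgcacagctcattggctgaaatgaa
Aldh18a1: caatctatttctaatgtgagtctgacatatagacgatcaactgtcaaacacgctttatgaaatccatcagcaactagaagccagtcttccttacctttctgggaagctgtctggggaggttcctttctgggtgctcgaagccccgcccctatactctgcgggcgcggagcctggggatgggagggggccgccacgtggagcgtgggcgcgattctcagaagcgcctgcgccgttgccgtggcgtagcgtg
Psat1: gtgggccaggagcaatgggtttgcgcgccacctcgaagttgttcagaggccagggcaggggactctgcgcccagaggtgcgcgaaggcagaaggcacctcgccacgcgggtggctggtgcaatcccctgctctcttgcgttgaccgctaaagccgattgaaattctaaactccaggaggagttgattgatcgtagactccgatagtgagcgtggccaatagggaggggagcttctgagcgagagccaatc
The capitals in Pycr1 begin 103 bases before its start, and a match of letters shows neither binding nor its absence elsewhere.

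After 24 hr of cytokines the 10 enzymes of the mutant did not move as a block. In mRNA, 7 lay above 0 and 3 below, where 53.2% of all genes lay above 0. The lowest and highest were 2.12 log2 units apart. Pycr1 was the 1 member at or above 1, where 7.73% of 12204 genes lay, and Psat1 and Cth were the 2 at or below -1, where 7.27% lay. The median of the 10 was 0.31, against 0.03 over all genes; the mean was 0.13, and the median ran from 0.15 to 0.46 with 1 member left out. At 48 hr, 6 were above 0, near the 53.0% of all genes. The median was 0.24, against 0.04 over all genes, but the mean was -0.0072, of the other sign, with Psat1 and Cth the lowest members. No member was then at or above 1 (8.96% of genes were) and Psat1 and Cth were at or below -1 (8.24%).

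**Figure D1:**
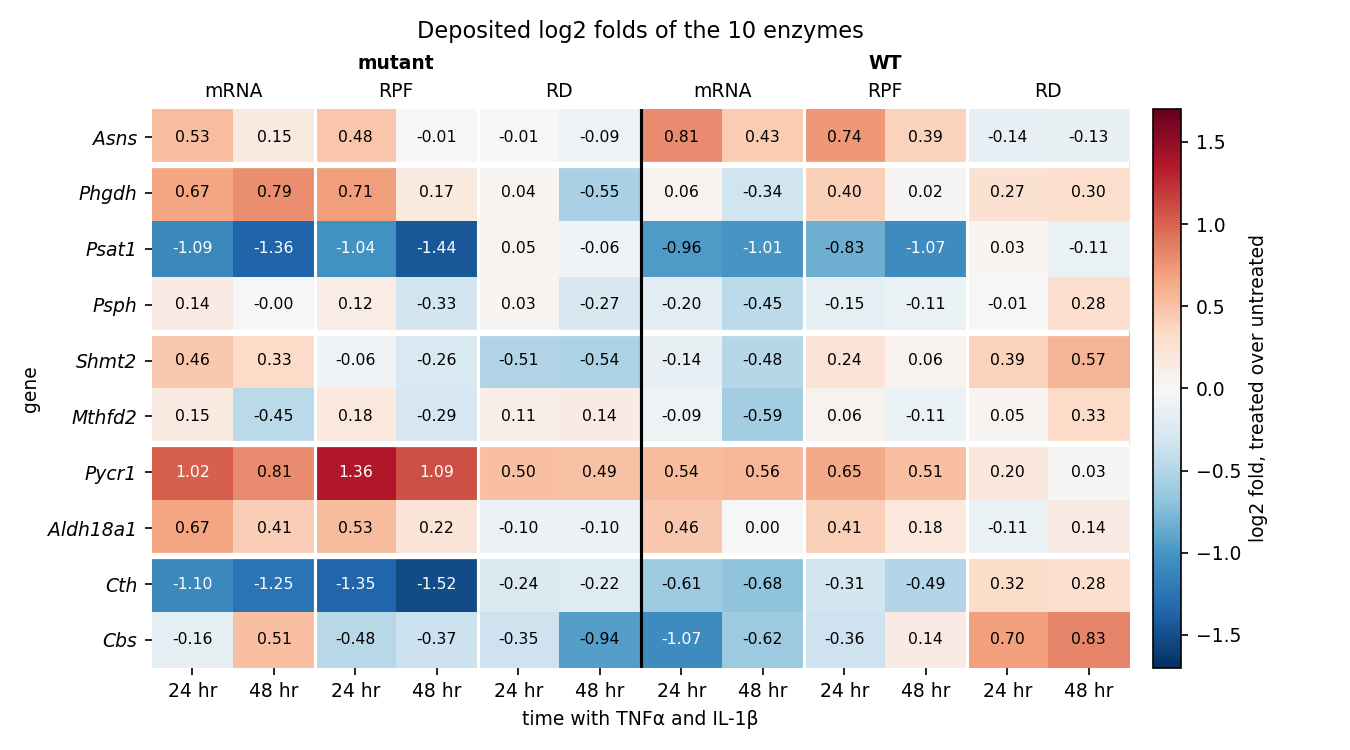
Log2 folds of treated over untreated cells for the 10 enzymes (rows, grouped by pathway) in the authors' deposited table, for mutant and WT astrocytes, in mRNA, RPF and RD at 24 hr and 48 hr (columns); colour gives the fold, printed in each cell. Pycr1 is high and Psat1 and Cth are low in mutant mRNA and RPF, and the RD folds of Cbs, Shmt2 and Cth are below 0 in the mutant and above 0 in WT. The median RD folds of genes of like GC content, not drawn here, are split the same way for Cbs and Shmt2 but not for Cth.

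Footprints gave much the same picture at 24 hr and a lower one at 48 hr. In mutant RPF at 24 hr, Pycr1 was at or above 1 (7.32% of genes were), Psat1 and Cth were at or below -1 (7.9%), and the median was 0.15 and the mean 0.04, against a median of 0.0094 over all genes. At 48 hr 3 of the 10 stood above 0, Phgdh, Pycr1 and Aldh18a1, against 50.1% of all genes. The median was -0.28, against 0.01 over all genes. The 1 member at or above 1 was Pycr1 (7.43% of genes were), and the 2 at or below -1 were Psat1 and Cth (8.29%). Ribosome density was at or beyond 1 for no member at 24 hr (1.7% of genes) or at 48 hr (2% of genes). The median RD fold was 0.01 at 24 hr, where the mean was -0.05, and -0.16 at 48 hr, against 0.0091 and 0.04 over all genes.

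Positions below are those of the whole gene in GENCODE M21 on GRCm38, and all 10 genes lie on the minus strand. Within serine synthesis the 3 enzymes split. Phgdh (chromosome 3, 98313170 to 98339990), the phosphoglycerate dehydrogenase that opens the pathway, had mutant mRNA folds of 0.67 at 24 hr and 0.79 at 48 hr in the authors' deposited table. Its footprints in the authors' deposited table were 0.71 at 24 hr but 0.17 at 48 hr, and its RD went with that, at 0.04 and then -0.55. So Phgdh mRNA was above that of untreated cells at both times, while its footprint fold was much smaller at 48 hr than its mRNA fold. At 48 hr its RD fold stood at percentile 6.0 of all genes, where the median of genes of like GC content was -0.20. GENCODE also lists a processed pseudogene of Phgdh, and how reads shared with it were counted is not stated in the sources used here.

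Psat1 (chromosome 19, 15904678 to 15947337), the phosphoserine aminotransferase of the next step, went the other way. The authors' deposited table gave Psat1 mutant mRNA folds of -1.09 at 24 hr and -1.36 at 48 hr, and RPF folds of -1.04 and -1.44. The RD folds of Psat1 in the authors' deposited table were 0.05 and -0.06, so mRNA and footprints were low by nearly the same amount. These mRNA folds stood at percentiles 6.4 and 5.2 of all genes. Psph (chromosome 5, 129765558 to 129787449), the phosphatase that releases serine, was close to its untreated level: mutant mRNA folds were 0.14 at 24 hr and -0.00036 at 48 hr according to the authors' deposited table. Its RPF folds in the authors' deposited table were 0.12 and -0.33, and its RD folds 0.03 and -0.27. Psph shares exon sequence with Cct6a on the opposite strand; the RNA-seq kit keeps strand, but its use in counting is not stated in the sources used here.

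Both mitochondrial one-carbon enzymes had mutant mRNA folds below 0.5 in size, and they differed in density. Shmt2 (chromosome 10, 127517123 to 127522444), the serine hydroxymethyltransferase that splits serine into glycine and a folate-bound carbon, had mutant mRNA folds of 0.46 at 24 hr and 0.33 at 48 hr in the authors' deposited table. The authors' deposited table put its footprints at -0.06 and -0.26 and its RD at -0.51 and -0.54. The Shmt2 mRNA folds were above 0 and its footprint folds below 0, and its RD stood at percentiles 4.3 and 6.4 of all genes. Genes of like GC content had median mRNA folds of 0.11 and 0.31. Less these medians, Shmt2 mRNA was at 0.35 at 24 hr and only 0.02 at 48 hr. The RD medians of genes of like GC content were -0.04 and -0.20. An exon of Shmt2 overlaps Ndufa4l2 on the other strand, with the same limit as for Psph.

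Mthfd2 (chromosome 6, 83305691 to 83325908), the dehydrogenase and cyclohydrolase that oxidises the folate-bound carbon, had mutant mRNA folds of 0.15 and -0.45 and RPF folds of 0.18 and -0.29 according to the authors' deposited table. Its RD folds in the authors' deposited table were 0.11 and 0.14, so Mthfd2 footprints tracked its mRNA at both times. It was the member whose mutant mRNA fold was most reduced at 48 hr relative to 24 hr, by a difference of -0.61.

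Both proline enzymes had mutant mRNA and RPF folds above 0 at each time. Pycr1 (chromosome 11, 120635712 to 120643769), the mitochondrial reductase that completes proline, had mutant mRNA folds of 1.02 at 24 hr and 0.81 at 48 hr in the authors' deposited table. Its footprints in the authors' deposited table were higher still, at 1.36 and 1.09, and its RD folds were 0.50 and 0.49. Pycr1 was the member with the highest RD at each time, at percentiles 95.5 and 93.1 of all genes. Its mRNA fold at 24 hr lay just inside the threshold: it was 0.99 less the median of all genes, and 0.92 less the median of genes of like GC content.

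Aldh18a1 (chromosome 19, 40550257 to 40588463), the synthase that commits glutamate to proline, had smaller folds, with mutant mRNA at 0.67 and 0.41 and RPF at 0.53 and 0.22 in the authors' deposited table. Its RD folds in the authors' deposited table were -0.10 at each time. Aldh18a1 footprints therefore followed its mRNA, whereas those of Pycr1 exceeded its mRNA.

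Asns (chromosome 6, 7675169 to 7693254), the asparagine synthetase and a textbook ATF4 target, was moderately higher at 24 hr and near its untreated level at 48 hr. The authors' deposited table gave mutant Asns mRNA folds of 0.53 and 0.15, RPF folds of 0.48 and -0.01, and for density -0.0087 and -0.09. The mRNA fold at 24 hr stood at percentile 85.3 of all genes.

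The transsulfuration pair was low in footprints. Cth (chromosome 3, 157894248 to 157925077), the lyase that frees cysteine from cystathionine, had mutant mRNA folds of -1.10 and -1.25 according to the authors' deposited table. In footprints it was the lowest of the 10, with RPF folds of -1.35 and -1.52 according to the authors' deposited table, and its RD folds were -0.24 and -0.22. Cth footprints stood at percentiles 4.9 and 4.2 of all genes. Cbs (chromosome 17, 31608894 to 31637238), the synthase that joins serine to homocysteine, had mutant mRNA folds of -0.16 at 24 hr and 0.51 at 48 hr in the authors' deposited table. Its RPF folds in the authors' deposited table were below 0 at each time, at -0.48 and -0.37, and its RD folds were -0.35 and -0.94. The RD fold of Cbs at 48 hr was the lowest among the 10, at percentile 1.5 of all genes. Genes of like GC content had a median RD fold of -0.18 at that time.

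**Figure D2:**
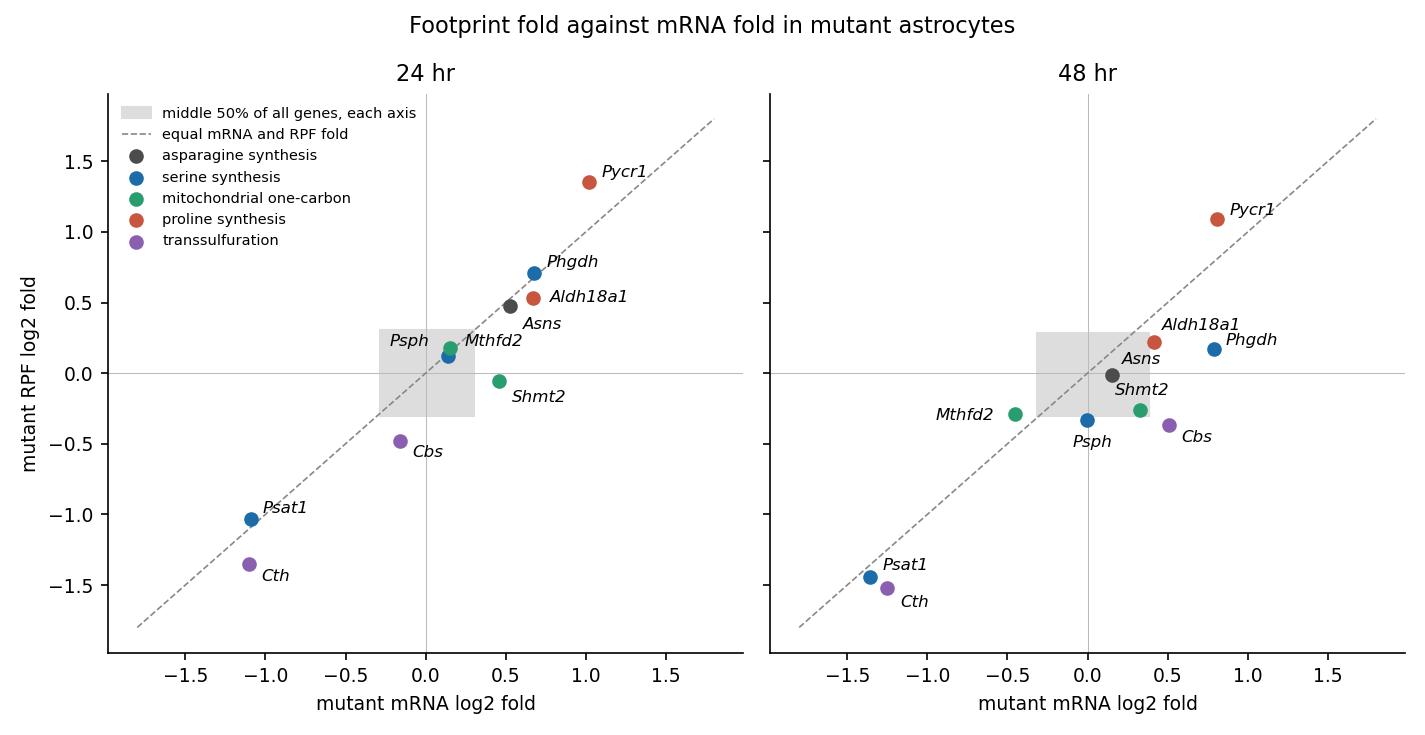
Mutant RPF log2 fold (vertical axis) against mutant mRNA log2 fold (horizontal axis), treated over untreated, for the 10 enzymes at 24 hr (left) and 48 hr (right); colours mark the pathway, the dashed line equal folds and the grey box the middle 50% of all genes on each axis. Pycr1 lies above the line at both times, Shmt2 and Cbs lie below it at both times, and Phgdh drops below it at 48 hr.

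For most members the fold was lower at 48 hr than at 24 hr. The 48 hr minus 24 hr difference, in which the untreated libraries common to both folds cancel, was below 0 for 8 of 10 members in mutant mRNA, against 49.5% of all genes, with a median of -0.18. In mutant RPF it was below 0 for 9 of 10, against 51.7% of all genes, with a median of -0.36 and Phgdh (-0.54), Asns (-0.49) and Mthfd2 (-0.47) lowest. Cbs was the exception in RPF, at 0.11, and with Phgdh (0.11) one of the pair above 0 in mRNA, at 0.67. In RD, 7 of 10 were below 0, against 47.6% of all genes, with a median of -0.05, against 0.02. Only Phgdh (-0.60) and Cbs (-0.59) went past 0.5 in size. None of these differences reached 1 in size, a distance passed by 1.42% of genes in mRNA, 1.85% in RPF and 1.13% in RD. The WT columns gave 8 of 10 below 0 in mRNA (51.0% of all genes) and 8 of 10 in RPF (49.4%), with medians of -0.30 and -0.18.

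In the authors' WT columns fewer members stood far out. Cbs was the 1 WT member at or beyond 1 in mRNA at 24 hr (17.1% of genes were), and Psat1 the 1 at 48 hr (18.4%). At 24 hr, less the median of genes of like GC content, Cbs was at -0.84 and Psat1 at -1.04, so that the 1 member there was then Psat1. At 48 hr Psat1 was at -0.99 less the median of all genes. In WT footprints none was there at 24 hr (16.6% of genes) and Psat1 was at 48 hr (16.8%). WT ribosome density had no member at or beyond 1 at 24 hr (3.11% of genes) or 48 hr (4.56%). The WT medians were -0.11 and -0.46 in mRNA, 0.15 and 0.04 in RPF, and 0.13 and 0.28 in RD, at 24 hr and 48 hr; the WT RPF mean at 48 hr was -0.05, of the other sign.

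Differences of the folds, mutant minus WT, reached 1 in size for Cbs, Shmt2, Phgdh and Cth. The median of the 10 was 0.29 at 24 hr and 0.33 at 48 hr in mRNA, against 0.0046 and -0.04 over all genes, and -0.0034 and -0.27 in RPF, against -0.0042 and 0.0012. In RD it was 0.02 and -0.37, against 0.07 and 0.12 over all genes. The treatment fold was thus higher in the mutant than in WT for the mRNA of 7 of the 10 enzymes at each time, against 50.6% of all genes at 24 hr and 47.2% at 48 hr. It was lower for the footprints of 7 at 48 hr, against 49.9% of all genes. The RD difference was above 0 for 6 members at 24 hr and 3 at 48 hr, against 56.0% and 57.1% of all genes. Less the GC-bin medians described next, the mRNA difference was above 0 for 7 members at 24 hr and 6 at 48 hr, with medians of 0.20 and 0.15. The RD difference was then above 0 for 4 and 1, in place of 6 and 3.

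The mRNA and RD differences moved with the base composition of the transcripts. Across 11991 to 11992 genes, the mutant minus WT difference had a Spearman correlation with transcript GC content of 0.68 (24 hr) and 0.77 (48 hr) in mRNA, of -0.59 and -0.70 in RD, and of only -0.05 and -0.08 in RPF. The RD folds of each genotype also moved with GC content, with correlations of -0.16 and -0.51 in the mutant and 0.52 and 0.59 in WT. These are descriptions across genes, which share libraries and are not replicates. Transcript GC content was 57.4% for Shmt2, 57.2% for Phgdh and 56.6% for Cbs, 54.5% for Pycr1, 53.7% for Aldh18a1 and Psph, 49.6% for Mthfd2, 48.7% for Asns, 48.4% for Psat1 and 44.2% for Cth, against a median of 50.4%. The differences of Cbs, Shmt2, Phgdh, Cth and Pycr1 are therefore given beside the median of the genes in the same of 20 GC bins; the part of base composition was not tested.

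Phgdh had an mRNA difference of 0.61 at 24 hr and 1.13 at 48 hr, with bin medians of 0.40 and 0.70. The authors' deposited table gave Phgdh mRNA at 0.67 and 0.79 in the mutant and at 0.06 and -0.34 in WT. Its footprint difference was smaller, at 0.30 and 0.15, with bin medians close to 0. Phgdh and Cbs were the 2 members whose mRNA difference at 48 hr was at or beyond 1 (8.09% of genes), and none was there at 24 hr (1.95%). Less the bin medians, these 48 hr differences were 0.43 for Phgdh and 0.56 for Cbs.

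Cbs had RD folds below 0 in the mutant and above 0 in WT. In the authors' deposited table its RD folds were -0.35 and -0.94 in the mutant and 0.70 and 0.83 in WT. The difference was -1.05 at 24 hr and -1.77 at 48 hr, and -0.76 and -1.26 less the bin medians. In mRNA the Cbs difference ran the other way, at 0.90 and 1.12, with bin medians of 0.34 and 0.56, and the footprint difference was -0.12 and -0.51. Cbs stood at percentiles 2.56 and 1.03 of all genes for its RD difference.

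Shmt2 and Cth also had RD folds below 0 in the mutant and above 0 in WT at both times. At 48 hr this held for Psph, Aldh18a1 and Phgdh as well. The share of all genes with such a split was not computed. At 48 hr the RD bin medians, mutant and WT, were split alike for most of these genes. They were -0.20 and 0.41 for Shmt2 and Phgdh, -0.18 and 0.32 for Cbs, and -0.04 and 0.08 for Psph and Aldh18a1. For Cth they ran the other way, at 0.20 and -0.25. Phgdh had -0.55 in the mutant and 0.30 in WT, a difference of -0.86 with a bin median of -0.59. In the authors' deposited table the RD folds of Shmt2 were -0.51 and -0.54 in the mutant and 0.39 and 0.57 in WT. The RD difference of Shmt2 was -0.90 and -1.11, with bin medians of -0.36 and -0.59, and its mRNA difference was 0.59 and 0.81, with bin medians of 0.40 and 0.70. Cbs was the 1 member with an RD difference at or beyond 1 at 24 hr (4.38% of genes), and Cbs and Shmt2 were the 2 at 48 hr (11%). Among the 74 other pathway genes described below, 10 were at or below -1 and 1 at or above 1 at 48 hr. For Sdsl of these, the 48 hr RD folds were -0.71 in the mutant and 1.59 in WT. Less the bin medians, the RD difference of Shmt2 was -0.54 and -0.52. In the authors' deposited table the RD folds of Cth were -0.24 and -0.22 in the mutant and 0.32 and 0.28 in WT. The RD difference of Cth was -0.56 and -0.50, with bin medians of 0.28 and 0.47, which leaves -0.84 and -0.97. At 24 hr this was farther from 0 for Cth than the -0.76 of Cbs, and at 48 hr it was nearer than the -1.26 of Cbs.

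Cth and Pycr1 differed in footprints, where their bin medians ran from -0.01 to 0.03. Cth was the 1 member with an RPF difference at or beyond 1, at 24 hr (1.5% of genes) and at 48 hr (1.82%). The authors' deposited table put Cth footprints at -1.35 and -1.52 in the mutant and at -0.31 and -0.49 in WT. The Cth difference was -1.04 at 24 hr and -1.03 at 48 hr, at percentiles 0.54 and 0.79 of all genes, and in mRNA it was -0.49 and -0.57. Pycr1 was the counterpart on the high side, with footprints of 1.36 and 1.09 in the mutant and 0.65 and 0.51 in WT in the authors' deposited table. Its RPF difference was 0.71 and 0.58, at percentiles 97.8 and 96.6 of all genes.

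The other 5 members differed by at most 0.44 in size in mRNA and 0.40 in RPF. The Asns folds were lower in the mutant than in WT, by differences of -0.28 at each time in mRNA and -0.26 and -0.40 in RPF. In the authors' deposited table Asns mRNA stood at 0.53 and 0.15 in the mutant and at 0.81 and 0.43 in WT. Those of Psat1 were lower too, by -0.14 and -0.36 in mRNA and -0.20 and -0.37 in RPF, with its footprints at -1.04 and -1.44 in the mutant and -0.83 and -1.07 in WT in the authors' deposited table. Aldh18a1 differed by 0.21 and 0.41 in mRNA and 0.12 and 0.04 in RPF. Psph differed by 0.34 and 0.44 in mRNA by 0.27 and -0.22 in RPF, and by -0.56 in RD at 48 hr. Mthfd2 differed by 0.24 and 0.14 in mRNA and 0.11 and -0.18 in RPF.

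**Figure D3:**
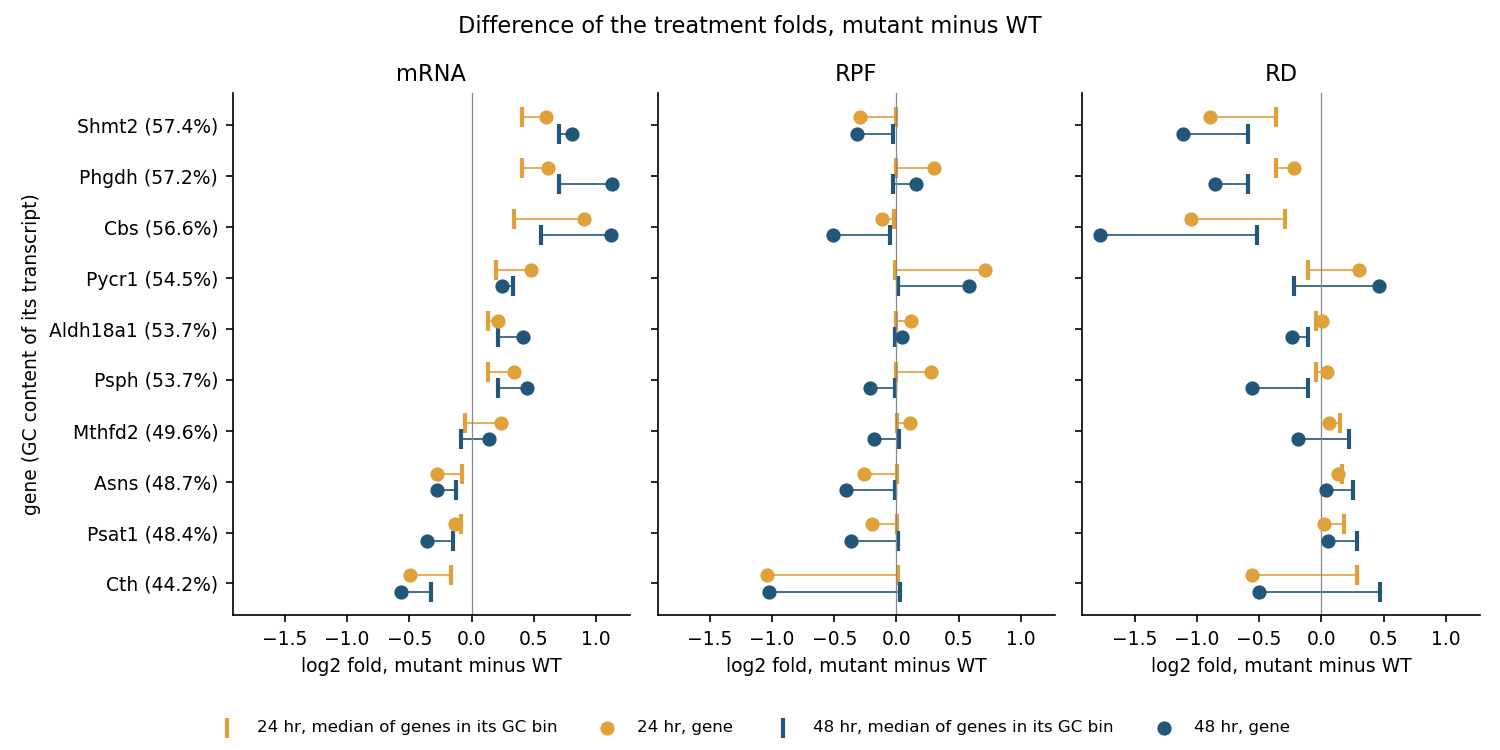
Mutant minus WT difference of the treatment log2 folds (horizontal axes) in mRNA, RPF and RD for the 10 enzymes, ordered from the highest transcript GC content (percentage beside the name) down; points are the genes at 24 hr and 48 hr and bars the median of the genes in the same GC bin. In mRNA and RD the bars follow GC content, and in RPF they lie near 0 while Cth lies at -1.04 and -1.03 and Pycr1 at 0.71 and 0.58.

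Among 74 other measured genes of the neighbouring pathways, amino acid transport and the ATF4 response, 6 reached 1 or more (7.73% of all genes did) and 4 reached -1 or less (7.27%) in mutant mRNA at 24 hr. At 48 hr 7 were above (8.96%) and 4 below (8.24%). In mutant footprints 6 were above (7.32%) and 5 below (7.9%) at 24 hr, and 5 above (7.43%) and 5 below (8.29%) at 48 hr. As shares of the 74, these counts lie near those of all genes. For 16 other folate and one-carbon genes the median mutant mRNA fold was 0.08 at 24 hr and 0.20 at 48 hr. Aldh1l2, the mitochondrial formyltetrahydrofolate dehydrogenase next to Mthfd2, was the highest, with mutant mRNA folds of 1.48 and 1.39 and RPF folds of 1.53 and 1.60 according to the authors' deposited table. Its cytosolic relative Aldh1l1, also an astrocyte marker, had mRNA folds of -0.98 and -0.93 in the mutant in the authors' deposited table. Lowest was Folr1, a folate receptor, at -2.41 and -2.64 in mutant mRNA in the authors' deposited table. Slc19a1, the reduced folate carrier, had 0.34 and 0.89 in mutant mRNA in the authors' deposited table. Of 10 measured genes of the methionine cycle and glycine cleavage, which share homocysteine with Cbs and glycine with Shmt2, none was at or beyond 1 in mutant mRNA or RPF. In the authors' deposited table Mtr, the methionine synthase, had mutant mRNA folds of -0.76 and -0.66, and Ahcyl1, a relative of the homocysteine-releasing hydrolase, -0.50 and -0.53. That hydrolase itself, Ahcy, had 0.16 and 0.47 and the glycine decarboxylase Gldc 0.07 and 0.43 in mutant mRNA in the authors' deposited table.

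In proline metabolism, Prodh stood opposite to Pycr1. Prodh, the dehydrogenase that degrades the product of Pycr1, had mutant mRNA folds of -2.18 and -1.73 and RPF folds of -2.13 and -2.11 according to the authors' deposited table. It was the 1 gene at or below -1 among 20 measured genes of proline, glutamate, aspartate, arginine and branched-chain metabolism, whose median mutant mRNA fold was 0.11 at 24 hr and 0.34 at 48 hr. Sdsl, which is related to serine dehydratase, was the 1 at or above 1, at 48 hr, with 0.63 and then 1.01 in mutant mRNA in the authors' deposited table. The branched-chain aminotransferase Bcat1 had 1.00, just under 1 before rounding, and 0.54, and Ass1, the argininosuccinate synthase, 0.67 and 0.97, in mutant mRNA in the authors' deposited table.

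Among the 11 measured amino acid carriers, Slc7a11 had the highest mutant mRNA fold at each time. Slc7a11, the cystine and glutamate exchanger, had mutant mRNA folds of 4.06 and 3.81 and RPF folds of 3.98 and 3.81 according to the authors' deposited table, where its WT mRNA folds were 4.96 and 5.20. Slc7a5, the large neutral amino acid carrier, had -1.52 and -1.99, and Slc3a2, the heavy chain both carriers need, -1.06 and -0.90 in mutant mRNA in the authors' deposited table. Slc38a1, a glutamine carrier, had -0.90 and -1.12 there in the authors' deposited table. The median of 11 measured carriers was 0.36 at 24 hr and 0.07 at 48 hr in mutant mRNA.

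ATF4 and 16 other measured genes known as its non-metabolic targets had a median mutant mRNA fold of 0.44 at 24 hr and 0.60 at 48 hr, against 0.31 and 0.24 for the 10 enzymes. In mutant mRNA, 4 of these 17 were at or above 1 at 24 hr (7.73% of all genes were) and 3 at 48 hr (8.96%), and none was at or below -1 (7.27% and 8.24%). Their median mutant RPF fold was 0.42 and 0.26, and their median WT mRNA fold 0.56 and 0.25. The median mutant minus WT difference of these 17 was 0.13 and 0.25 in mRNA but -0.14 and -0.33 in RPF. Atf4 itself had mutant mRNA folds of 0.85 and 0.55 and RPF folds of 0.93 and 0.60 according to the authors' deposited table. In WT its RPF folds were 1.77 and 1.03 in the authors' deposited table. Nupr1, a small stress-response nuclear protein, had 3.02 and 2.06, Cebpb, a C/EBP partner of ATF4, 2.93 and 2.79, and Gdf15, a stress-secreted cytokine, 1.09 and 1.22 in mutant mRNA in the authors' deposited table. Ddit3, which encodes CHOP, had mRNA folds of 1.17 and 0.86 but RPF folds of 0.49 and 0.18, and Trib3, a pseudokinase downstream of it, mRNA folds of 0.27 and 0.13 in the mutant in the authors' deposited table. A CARE match lay in the promoter windows of 10 of 64 genes of these other lists that had a window, among them Slc7a11, Trib3, Nupr1 and Chac1.

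**Figure D4:**
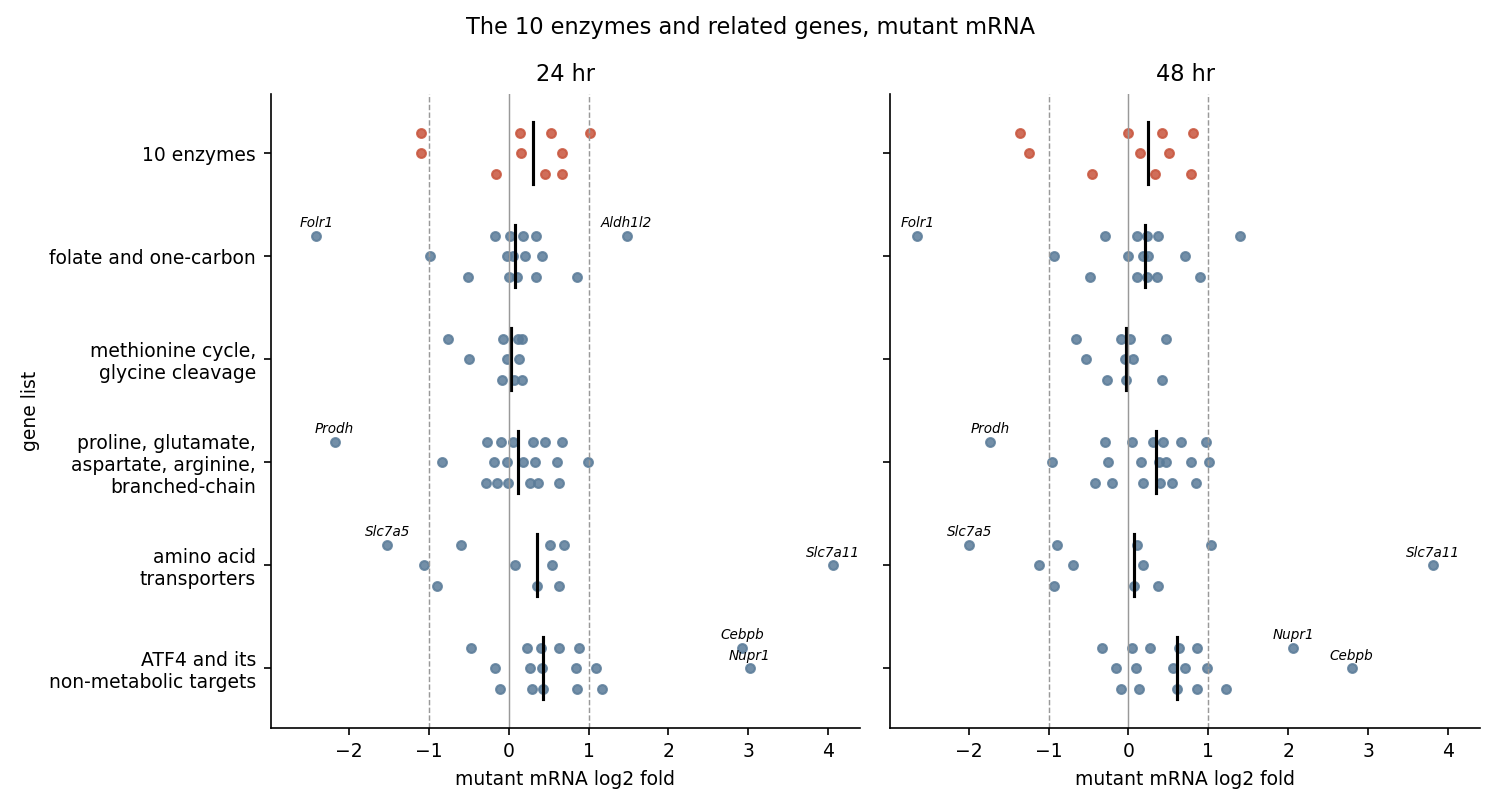
Mutant mRNA log2 fold, treated over untreated (horizontal axes), at 24 hr (left) and 48 hr (right) for the 10 enzymes (top row) and the measured genes of 5 related lists (rows below); each point is a gene, vertical offset has no meaning, black bars are list medians and dashed lines mark -1 and 1. The 10 enzymes span -1.10 to 1.02 at 24 hr, while single genes of the other lists lie far outside that span.

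Over the 6 mutant columns, the genes of the whole table nearest by Euclidean distance to the medians of the 10 enzymes were Tmem39a (0.200), Rbm22 (0.204), Entpd7 (0.211), Snupn (0.216) and Ebna1bp2 (0.227). The enzymes themselves lay farther from their own medians, at distances of 0.321 for Psph to 2.84 for Cth.

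Another deposited table scores 2332 transcripts by a value the authors call IS, which its header does not spell out, in mutant cells at 24 hr and untreated, with 2 of the 10 enzymes in it. The Asns transcript had an IS of 45.3 at 24 hr, rank 157, against 28.9 untreated, rank 254, in the authors' deposited table. The Psat1 transcript had 5.17 at 24 hr, rank 721, against 4.81 untreated, rank 851, in the authors' deposited table. Both were thus higher in treated mutant cells, as were 33.0% of the 2332 transcripts, whose median was 1.73 at 24 hr and 2.42 untreated. The density of elongation reads in the authors' deposited table was 0.103 for Asns, rank 2289, and 0.168 for Psat1, rank 1505.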

How the data were processed

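RNA-seq and Ribo-seq came from 18 libraries, 3 in each of 6 groups. TopHat2, featureCounts and the build mm10 are named, without version, in the submitters' processing notes. Per the file headers, the authors deposited a log2 fold (treated over untreated) in 12 comparisons for each of 12205 genes; the sources used here do not say how the 3 batches entered these folds or how deep each library was. Mutant RPF values at 48 hr carry 2 decimals. The authors also deposited a score (IS) and a signal of elongation read density per transcript; 2 columns of WT scores were not used. The members, the gene lists and the thresholds were chosen with earlier results of these data known.

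Computed here were counts at or beyond a log2 fold of 1, medians, differences between times and genotypes, percentiles among all genes, and promoter matches. Named were all 10 members, up to 4 genes per other list with the greatest absolute mutant mRNA fold, Atf4, Ddit3 and Trib3, and the 5 nearest genes; a gene of the folate list is not reported here and was left out of its counts. Gene structure and GC content came from GENCODE M21 on GRCm38, the assembly of mm10 (11992 genes, the transcript with the longest coding sequence). Alternatives were a threshold of 0.5, centring on the median of all genes, means, leaving out members, RPF minus mRNA for RD, and, added after seeing the data, subtraction of the median of each of 20 GC bins. Python 3.11.15, pandas 2.3.3, numpy 2.4.6 and matplotlib 3.10.9 were used, and the procedures were tested on simulated data.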

Additional observations from a re-analysis of the deposited data

How the results depend on the processing

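No paired analysis was possible because the deposited folds are 1 value per comparison, with no value per library or batch; leaving out a replicate could not be done for the same reason, and without counts the depth that limits each fold is unknown. With a threshold of 0.5, the members counted in the mutant were 6 and 5 in mRNA at 24 hr and 48 hr (32.2% and 37.3% of all genes), 5 and 3 in RPF (32.8% and 32.6%), and 2 and 3 in RD (9.11% and 14.2%). The WT counts for mRNA were 5 and 5 (35.9% and 39.3%), for RPF 3 and 2 (35.1% and 35.6%), and for RD 1 and 2 (21.9% and 26.4%). The mutant minus WT counts for mRNA were 3 and 4 (14.2% and 27.3%), for RPF 2 and 3 (9.27% and 10.6%), and for RD 3 and 4 (24.1% and 43.8%). For 48 hr minus 24 hr in the mutant there were 2 in mRNA (7.63%), 1 in RPF (7.6%) and 2 in RD (7.76%). Of the 74 other pathway genes, 29 and 32 in mRNA and 25 and 25 in RPF were then counted. Centring on all genes left 0 WT members in mRNA at 48 hr (Psat1 at -0.99). Subtracting the GC-bin medians left 0 members in the mutant minus WT mRNA difference at 48 hr, 0 in that of RD at 24 hr and 1, Cbs, in that of RD at 48 hr, where Shmt2 was at -0.52. It also took Pycr1 in mutant mRNA at 24 hr to 0.92 and Cbs in WT mRNA at 24 hr to -0.84. The mean of the WT mRNA folds at 48 hr was -0.32, against a median of -0.46. The cause was not tested. No direction of a member past the threshold was reversed under centring or GC-bin subtraction.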
